A study of Mus musculus with 4 samples.

Results

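The nuclear hormone receptors are a family of transcription factors, many of which are switched by small fat-soluble ligands. The 40 genes described here are members of the family outside the NR4A and clock groups, and were chosen by name from 46799 deposited loci. No cut on their values was used, but earlier results of these data were known when they were chosen. Each of the 40 matched 1 row of both deposited expression tables, which write symbols in capitals (VDR, PPARG, THRA, NR3C1), and mouse symbols are used below. They comprise 6 retinoid receptors (RAR and RXR), 3 receptors for thyroid hormone and vitamin D, 5 steroid receptors, 8 lipid and xenobiotic sensors and 18 orphan receptors. The libraries are SMART-seq2 libraries, made by copying whole transcripts of few cells into cDNA. The cells were γδ T cells that flow cytometry sorted out of epididymal adipose tissue, and the donors were C57Bl/6 males of 16 to 22 weeks. All mice carried the PLZF-GFP reporter, which reads out Zbtb16, the gene of the transcription factor PLZF, so both subsets share that allele. There were 2 libraries of PLZF+ cells (A7 and B7) and 2 of PLZF- cells (A6 and B6), named here by the code in the table columns, and each came from a pool of 10 mice. Single mice therefore cannot be seen, and p-values measure the spread between pools.

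A typical receptor of this family binds DNA through a pair of zinc fingers and its ligand through a separate pocket, and exchanges corepressor for coactivator complexes when the ligand binds. RXR is the shared dimer partner of RAR, the vitamin D receptor, the thyroid hormone receptors, the PPARs and the LXRs, whereas the glucocorticoid receptor waits in the cytoplasm on HSP90 chaperones and acts mostly as a homodimer. In T cells, retinoic acid and vitamin D are known to shape homing and cytokine choice, and glucocorticoids restrain activation. PPARγ is best known as the master factor of fat cells, and in fat-resident regulatory T cells and group 2 innate lymphoid cells it takes part in the tissue programme.

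The PLZF- libraries were shallower, with an estimated 744569 (A6) and 981885 (B6) reads outside the rRNA precursor Rn45s, against 1837514 (A7) and 2035080 (B7) in the PLZF+ libraries. One read stood for 1.69, 1.22, 0.619 and 0.558 normalized counts in A6, B6, A7 and B7. The CD3 chain genes Cd3d, Cd3e, Cd3g and Cd247 were read in all 4 libraries, with summed levels of 761 and 1197 normalized counts (A6, B6) against 2371 and 2592 (A7, B7), and all 4 rose in PLZF+ cells, while the δ constant gene was not found under its symbol. Zbtb16 had 310 and 699 against 2899 and 2921 normalized counts, so its direction matched the labels. Several lists of genes used as markers of other cells differed between the subsets. Whether other cells or the γδ T cells themselves expressed these genes was not tested. The 14 group 2 innate lymphoid markers summed to 5545 and 4149 normalized counts in PLZF- libraries against 503 and 325 in PLZF+ libraries, the 12 natural killer markers to 4968 and 4278 against 335 and 302. The 12 plasmacytoid dendritic cell markers summed to 1036 and 698 against 120 and 87.1, the 12 MHC class II and dendritic cell markers to 2127 and 877 against 250 and 60.8, and the 8 mast cell markers to 1282 and 676 against 388 and 53.0. The 15 macrophage markers summed to 79.3 and 109 against 19.8 and 32.4, with 8 of them at 0 everywhere, among them Mrc1, C1qa, C1qb, C1qc, Fcgr1, Mertk and Cd163. The 11 adipocyte markers summed to 40.5 and 15.9 against 20.4 and 7.25, with Adipoq, Plin1, Cidec, Retn, Cfd and Acvr1c at 0 in every library, and 9 of 10 stromal markers were at 0 as well. Of the 4 αβ T cell markers found (Cd4, Cd8a, Cd8b1 and Foxp3), the sums were 27.0 and 23.2 against 1.24 and 0. The 10 endothelial markers summed to 113 and 122 against 162 and 157, and those of B cells (7 found) and of mesothelium and epididymis (10) reached at most 33.4 and 30.7. What part other cells have in the results below was not tested, and in pools of cells fewer cells of a type and less RNA per cell cannot be told apart.

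Much of the family was silent at this depth, and 1 receptor dominated the rest. No read was found in any library for 20 of the 40 members, 9 had some reads but fell below the filter, and 11 passed a mean of 10 normalized counts and were tested. The glucocorticoid receptor gene Nr3c1 alone made up 75.9%, 62.0%, 71.6% and 72.1% of the summed FPKM (a level scaled to transcript length and library size) of all 40 members in A6, B6, A7 and B7. The order of mean FPKM over the 4 libraries was Nr3c1 (246), Nr1h2 (35), Vdr (12.1), Nr2c2 (10.8), Rarg (10.1), Rara (9.02), Pparg (5.77), Rxra (3.69), Rxrb (3.51), Thra (2.90) and Nr2c1 (1.85). Nr3c1 stood above Nr1h2, and Nr1h2 above Vdr, in every library, and from Vdr downwards each neighbour in that order overlapped the next over the 4 libraries. The place of Vdr rests on B6. Without that library, a comparison added after the values were seen, its mean was 6.87 FPKM, below Rarg (10.6), Nr2c2 (9.92) and Rara (8.86).

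**Figure D1:**
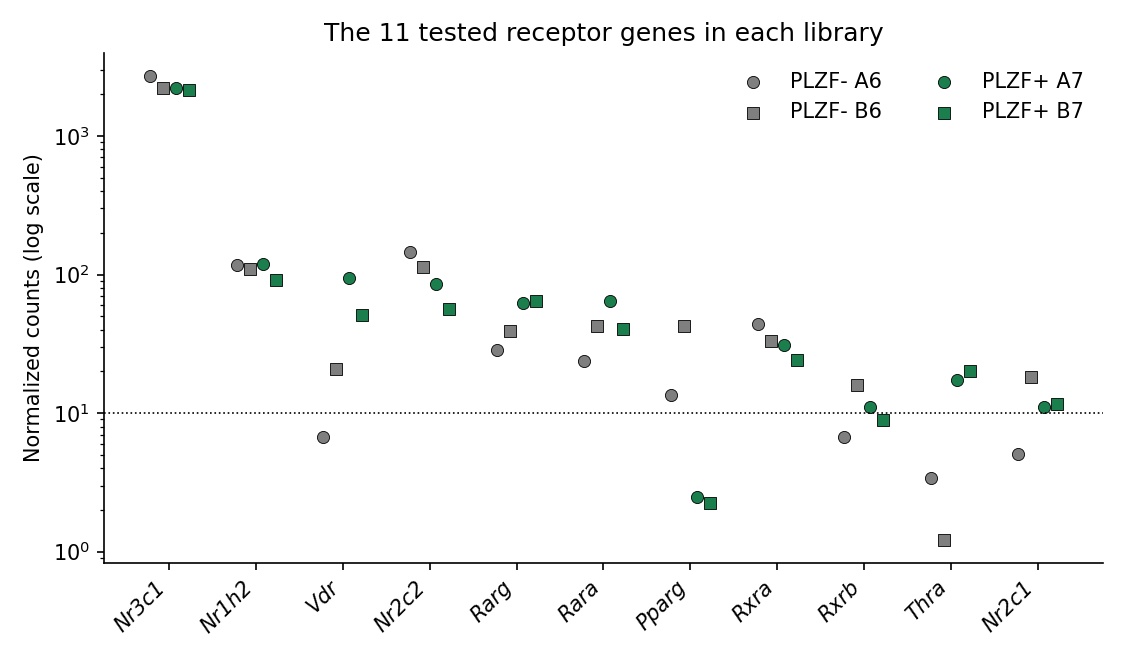
Normalized counts (log axis) of the 11 tested receptor genes in PLZF- libraries A6 and B6 (grey) and PLZF+ libraries A7 and B7 (green), ordered by mean FPKM, with a dotted line at 10, the minimum mean for testing. Nr3c1 lies between 2160 and 2704, Vdr and Thra are higher in both PLZF+ libraries, and Pparg lies at 2.48 and 2.23 in them.

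Between the subsets, 1 of the 11 tested members was called higher in PLZF+ cells, Vdr, and 0 were called lower (limma, adjusted p below 0.05). The background was 2.52% of 8978 tested genes called higher, 4.72% called lower and 7.24% in either direction, so 1 call among 11 members is close to the background. By FPKM, 0 members were called, where 3.45% of all tested genes were. Unadjusted p (limma) was below 0.05 for 3 members (Vdr, Pparg and Nr2c2). The share of all tested genes below that value was not counted, so no excess among the members can be read from it. Of the tested members 5 had positive and 6 negative log2 fold changes, with a median of -0.06, beside -0.02 for all tested genes. In the authors' deposited table, 8 members were tested and 0 were significant, where 5.73% of all tested loci were. The subsets did not overlap for 6 of the 11 members. These were 3 higher in PLZF+ cells (Vdr, Thra and Rarg) and 3 lower (Pparg, Nr2c2 and Rxra), where 24.2% of all tested genes were higher, 26.9% lower and 51.1% either, so such separation was as common among all genes.

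**Figure D2:**
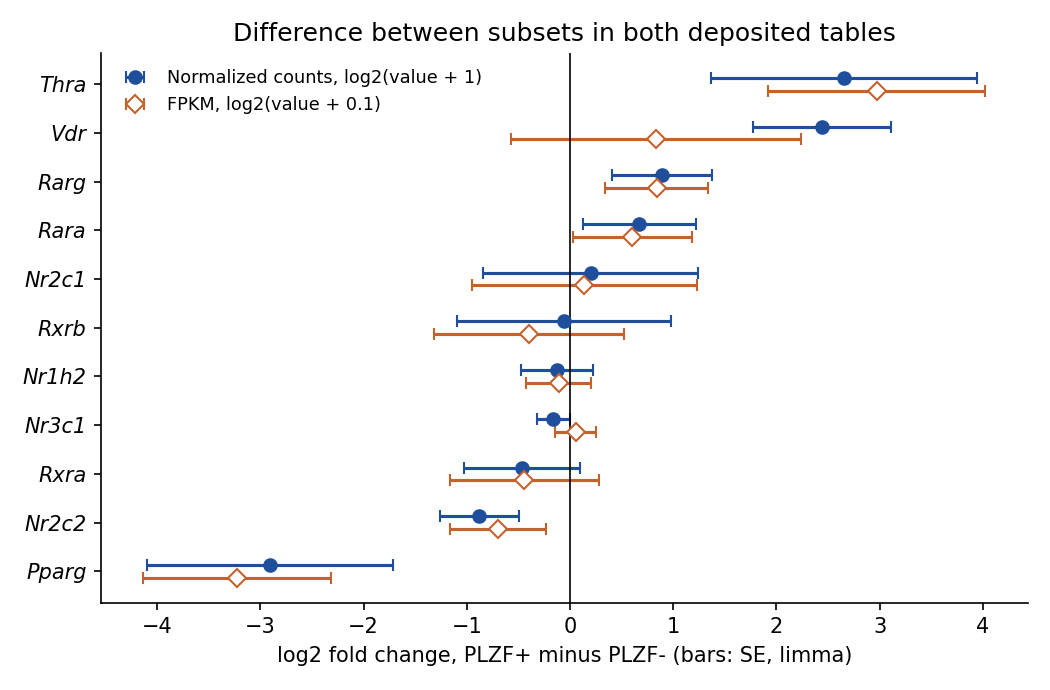
log2 fold change (PLZF+ minus PLZF-) of the 11 tested members with its SE from limma, on normalized counts (blue circles, pseudocount 1) and on FPKM (orange diamonds, pseudocount 0.1). The widest gap between the tables is that of Vdr, at 2.44 by normalized counts and 0.83 by FPKM.

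Vdr encodes the vitamin D receptor (ENSMUSG00000022479.15, chromosome 15, 97854425 to 97910630, minus strand, mm10). It had 6.75 and 20.7 normalized counts (PLZF-: A6, B6) against 94.8 and 50.8 (PLZF+: A7, B7), from 4, 17, 153 and 91 estimated reads. Both PLZF+ libraries lay above both PLZF- libraries. The means were 72.8 ± 31.1 in PLZF+ and 13.7 ± 9.89 in PLZF- cells (SD over n = 2 libraries each), with a log2 fold change of 2.44 ± 0.67 (SE, limma adjusted p = 0.043).

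The same gene went the other way by group means in the FPKM table. Vdr had 0.916 and 27.8 FPKM in A6 and B6 and 12.8 and 6.89 in A7 and B7, so the highest library there was PLZF- B6, and the group means were 14.4 ± 19.0 in PLZF- and 9.85 ± 4.18 in PLZF+ cells (SD over n = 2 libraries each). One FPKM of Vdr corresponded to 7.37, 7.40 and 7.37 normalized counts in A6, A7 and B7, but to 0.745 in B6, a 9.94-fold spread. The next widest spread among the tested members was 1.64-fold, for Nr2c2. Of 8588 genes above 0 in all libraries of both tables, 73 (0.850%) had a spread of at least 5-fold, and Vdr is 1 of 2 among the 650 called genes whose group means point opposite ways in the tables. GENCODE M21 lists 6 Vdr transcripts of 343 to 4370 bases, and the transcript to which the authors' program gave the B6 reads is not recorded in the tables. On log2(FPKM + 0.1) the difference was 0.83 ± 1.41 (SE, adjusted p = 0.80, limma), and the authors' deposited table gives Vdr a q-value of 0.78.

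The Vdr call held in 5 of 13 other settings, with adjusted p from 0.0023 to 0.80, and its log2 fold change was positive in all 13. It was lost without A6 (log2 fold change 1.70, adjusted p = 0.17), without A7 (2.0, 0.53) and without B7 (2.88, 0.24), and it held without B6 (3.18, 0.026).

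**Figure D3:**
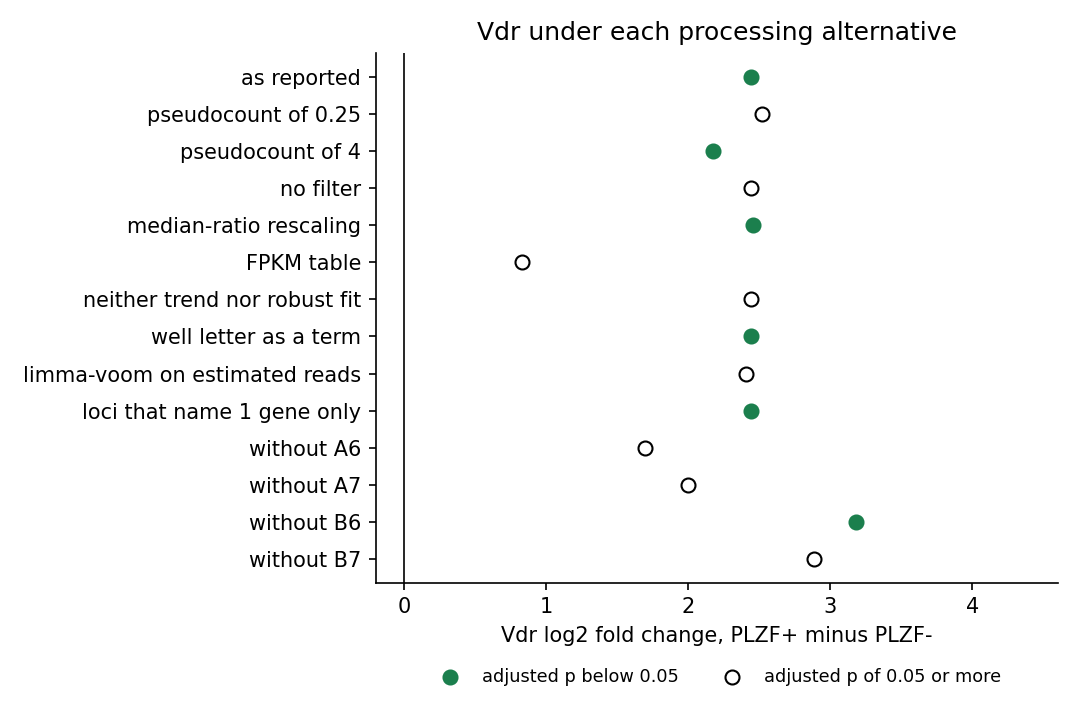
log2 fold change of Vdr (PLZF+ minus PLZF-) as reported and under each of 13 alternatives, filled where the adjusted p from limma was below 0.05. The value is above 0 throughout, from 0.83 with the FPKM table to 3.18 without B6.

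Thra, the gene of thyroid hormone receptor α, had 3.37 and 1.22 normalized counts (A6, B6) against 17.3 and 20.1 (A7, B7). The PLZF- values rest on 3 reads in all and the PLZF+ values on 64, a ratio of 8.85 (95% exact counting interval 2.89 to 44.0, for counting error only). Both PLZF+ libraries were higher, but the gene did not pass (log2 fold change 2.66 ± 1.29, SE, adjusted p = 0.27, limma), and the authors' deposited table gives a q-value of 0.063. Thra (chromosome 11, 98740638 to 98769006, plus strand) overlaps the clock gene Nr1d1 (98767932 to 98775333, minus strand) over 1075 bases in GENCODE M21, a tail-to-tail pair in which the long Thra form runs into Nr1d1. Nr1d1 rose in PLZF+ cells, with 8.44 and 25.6 normalized counts (A6, B6) against 145 and 139 (A7, B7) (log2 fold change 3.17, adjusted p = 0.0034). The deposited Thra locus is wider than the GENCODE gene and runs from 98740638 to 98775377, over the whole of Nr1d1. Without a strand record, reads of both genes where they overlap cannot be told apart. The other thyroid hormone receptor gene, Thrb, had 0 and 15.9 normalized counts (A6, B6) against 0 and 6.14 (A7, B7), and was not tested.

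Among the retinoid receptors, which bind vitamin A derivatives, 4 of 6 were tested and 0 passed. Rarg had 28.7 and 39.0 normalized counts (A6, B6) against 61.9 and 64.2 (A7, B7), so the PLZF+ libraries were both higher (log2 fold change 0.89 ± 0.49, adjusted p = 0.34). Rara, which is the main retinoic acid receptor of lymphocytes, had 23.6 and 42.7 against 64.4 and 40.7 normalized counts, and its subsets overlapped (log2 fold change 0.67 ± 0.55, adjusted p = 0.54). The third RAR gene, Rarb, itself a classic retinoic acid target, had 6.75 and 6.10 against 12.4 and 0 and stayed below the filter.

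The RXR partners were low. Rxra had 43.9 and 32.9 normalized counts (A6, B6) against 31.0 and 24.0 (A7, B7), with non-overlapping values and a log2 fold change of -0.46 ± 0.56 (adjusted p = 0.69). Rxrb had 6.75 and 15.9 against 11.1 and 8.93 (log2 fold change -0.06 ± 1.04, adjusted p = 0.99), and Rxrg had no read. Per length, the 3 RAR genes summed to 12.7 (A6), 19.6 (B6), 28.6 (A7) and 21.9 (B7) FPKM, above the sum of the 3 RXR genes in each library, which was 6.75 in A6, 10.5 in B6, 6.39 in A7 and 5.20 in B7.

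Of the steroid receptors, Nr3c1 was the 1 tested member. It had 2704 and 2233 normalized counts (A6, B6) against 2233 and 2160 (A7, B7), and the subsets overlapped. Its log2 fold change of -0.16 ± 0.16 (SE) did not pass (limma adjusted p = 0.62) and was 0.05 by FPKM, so its sign differed between the tables. The deposited Nr3c1 locus (chromosome 18, 38993145 to 39519826) is wider than the GENCODE M21 gene (39410545 to 39519421). The mineralocorticoid receptor gene Nr3c2 had 0 reads in A6 and B6 and 4 and 10 in A7 and B7. A count of 0 allows up to 3 reads a library, which is 5.06 and 3.66 normalized counts in A6 and B6, beside 2.48 and 5.58 in A7 and B7, and the gene lay under the filter and was not tested. Of the sex steroid receptors Esr1, Esr2 and Pgr, no read was found.

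Of the lipid sensors, 2 were tested and 0 passed. Nr1h2, which encodes the oxysterol sensor LXRβ, had 118 and 110 normalized counts (A6, B6) against 119 and 91.0 (A7, B7) (log2 fold change -0.13 ± 0.35, adjusted p = 0.88), while its sister Nr1h3 (LXRα) had no read. Pparg had 13.5 and 42.7 normalized counts (A6, B6) against 2.48 and 2.23 (A7, B7), from 8, 35, 4 and 4 reads. Both PLZF- libraries lay above both PLZF+ libraries, and B6 lay well above A6.

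Pparg had the most negative log2 fold change of the 11 members, -2.91 ± 1.19 (SE), and did not pass (adjusted p = 0.19, limma), nor in any of 13 other settings (adjusted p 0.12 to 0.48). The ratio of group means was 11.9, with 28.1 ± 20.6 in PLZF- and 2.35 ± 0.17 in PLZF+ cells (SD over n = 2 libraries each). It rests much on B6: without that library the ratio was 5.73 and the log2 fold change -2.11, and without A6 they were 18.1 and -3.70. In the authors' deposited table its q-value was 0.11. Several marker lists were lower in the same libraries. Called lower in PLZF+ cells were 10 of 11 tested group 2 innate lymphoid markers, 10 of 11 of natural killer cells, 5 of 8 of plasmacytoid dendritic cells, 3 of 9 of the MHC class II list and 1 of 6 of mast cells. Of the 11 adipocyte markers 6 were at 0 in all libraries, Adipoq among them, and the 1 tested, Lipe, had 18.6 and 15.9 against 11.1 and 5.02 normalized counts (adjusted p = 0.58). The 1 tested macrophage marker was not called either. Which cells of the pools expressed these markers, and which expressed Pparg, was not tested. Ppard, a PPAR expressed in many tissues, had 10.1 and 7.32 normalized counts against 0 and 5.58 and lay under the filter, Ppara had no read, and so had the bile acid and xenobiotic receptor genes Nr1h4 and Nr1i2. Nr1i3 had 2 reads, in B7.

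Of 18 orphan receptors, 2 were tested. Nr2c2, also known as TR4, had 146 and 114 normalized counts (A6, B6) against 86.1 and 56.3 (A7, B7). Both PLZF- libraries lay above both PLZF+ libraries, and the gene did not pass (log2 fold change -0.88 ± 0.38, adjusted p = 0.22). It overlaps Mrps25 on the other strand. Nr2c1 (TR2), its close relative, had 5.06 and 18.3 against 11.1 and 11.7 (log2 fold change 0.20 ± 1.04, adjusted p = 0.94), and its row also names AK029258. The energy metabolism factor Esrra had 6.75 and 14.6 against 1.24 and 8.93 normalized counts. Nr6a1 (3.37 and 0 against 11.8 and 1.67) and Nr2f6 (0 and 1.22 against 0 and 4.91) had at least 5 reads in some library, and Esrrb had 4 reads, all in A6. The remaining 12, among them Hnf4a, Nr5a2 and Rorb, had none.

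Of the receptors outside these 40, Nr4a1, an immediate early gene of T cell activation, fell in PLZF+ cells, with 1994 and 2145 normalized counts (A6, B6) against 594 and 310 (A7, B7) (log2 fold change -2.27, adjusted p = 0.00012).

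Promoter sequence was set beside the expression data because the 40 members differed so much in level. Windows of 250 bases before annotated starts were taken from RefSeq on GRCm38.p6, which held 36 of the 40 members. Of the tested members, Nr3c1 and Thra had no window. Median GC content was 63.6% for the 17 windows of 9 tested members. It was 59.4% for the 12 windows of 9 members with some reads that were not tested. For the 28 windows of 18 unread members it was 52.0%, and for all 32851 windows 52.4%. The half-site that most of these receptors recognise, AGGTCA on either strand, was in 4 of the 17 windows (23.5%). It was in 2 of the 12 (16.7%), 4 of the 28 (14.3%) and 14.0% of all windows. A match describes letters only, and windows of one gene can overlap. The 4 windows below are those of Nr1h2, whose subsets overlapped, Pparg (the most downstream of its 3 starts), and Rarg and Nr2c2, whose subsets did not overlap in opposite directions. Each lies outside annotated GENCODE exons, and capitals mark a half-site.
Pparg chr6:115421816-115422065, plus strand: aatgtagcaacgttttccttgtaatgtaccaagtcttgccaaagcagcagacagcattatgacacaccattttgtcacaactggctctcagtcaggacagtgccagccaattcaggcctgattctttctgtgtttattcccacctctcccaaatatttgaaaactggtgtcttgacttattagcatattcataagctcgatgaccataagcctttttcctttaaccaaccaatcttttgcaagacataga
Rarg chr15:102257523-102257772, minus strand: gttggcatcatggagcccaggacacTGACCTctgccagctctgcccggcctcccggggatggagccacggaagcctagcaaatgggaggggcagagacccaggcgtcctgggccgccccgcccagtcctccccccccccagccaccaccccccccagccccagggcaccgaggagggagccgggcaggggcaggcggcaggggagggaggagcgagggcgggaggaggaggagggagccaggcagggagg
Nr2c2 chr6:92092183-92092432, plus strand: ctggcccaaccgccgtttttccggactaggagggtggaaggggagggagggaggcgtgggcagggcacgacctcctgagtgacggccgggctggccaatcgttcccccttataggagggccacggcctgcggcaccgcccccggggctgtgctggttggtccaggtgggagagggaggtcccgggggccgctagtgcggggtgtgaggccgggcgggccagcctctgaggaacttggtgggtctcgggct
Nr1h2 chr7:44553966-44554215, minus strand: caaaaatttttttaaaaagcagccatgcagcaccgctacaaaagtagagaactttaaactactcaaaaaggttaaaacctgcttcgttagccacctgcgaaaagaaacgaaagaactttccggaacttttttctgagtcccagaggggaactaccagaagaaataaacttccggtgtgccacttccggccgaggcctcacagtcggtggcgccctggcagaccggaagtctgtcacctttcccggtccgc
Among these 4, the Rarg window holds 1 half-site, read here from its opposite strand as TGACCT, and the others hold none. The other two Pparg windows, which overlap Pparg exons and are not printed, hold 1 half-site each, and the second Rarg window holds 0.

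No cofactor through which these receptors act passed the test on normalized counts. Of 19 tested coactivators 0 passed, where 7.24% of all tested genes did, with a median log2 fold change of -0.13, beside -0.02 for all tested genes. Trrap, a scaffold of histone acetyltransferase complexes, came closest, with 385 and 259 normalized counts (A6, B6) against 185 and 106 (A7, B7) (log2 fold change -1.16 ± 0.33, adjusted p = 0.050), and the acetyltransferase gene Crebbp had 610 and 504 against 395 and 360 (-0.55 ± 0.22, adjusted p = 0.17). With the FPKM table the coactivator gene Med13 was called higher in PLZF+ cells (limma adjusted p = 0.041), but not on normalized counts (0.62). Of 16 corepressors 0 passed on normalized counts, with a median of -0.23. Ncor1, the corepressor that binds unliganded receptors, had 825 and 721 against 922 and 862 normalized counts (log2 fold change 0.21 ± 0.19, adjusted p = 0.59), and Tbl1x, a subunit of the same complexes, did not pass either (0.51, adjusted p = 0.27). Of 12 chaperones 0 passed, with a median of -0.25, and the smallest p values were those of Hspa8 (-0.87 ± 0.28, adjusted p = 0.11) and the phosphatase gene Ppp5c (1.13, adjusted p = 0.13). The genes Med13, Ncor1, Abcg1, Slc16a10 and Hsd11b1 are named here although the naming rule does not call for them, with their values already seen.

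Among the targets of the receptors, calls were more often lower than higher in PLZF+ cells. Many targets are shared with other pathways, and the shares to read them against are the 4.72% of all tested genes called lower and 2.52% called higher. Of 16 tested glucocorticoid targets, 6 fell and 1 rose (median -0.39, beside -0.02 for all tested genes), and the riser was Zbtb16, on whose reporter the cells were sorted. Anxa1, which encodes the anti-inflammatory protein annexin A1, had 477 and 510 normalized counts (A6, B6) against 147 and 165 (A7, B7) (log2 fold change -1.65 ± 0.24, adjusted p = 0.00091). Its call held with the FPKM table (adjusted p = 0.013, limma) but not in a limma fit with neither trend nor robust (0.12). Of the other fallers named next, that fit also lost Nfkbia (0.18), Zfp36 (0.14) and Rgs2 (0.37), and kept Tns1 (0.011). The FPKM table kept Nfkbia (limma adjusted p = 0.027) and lost Tns1 (0.13), Zfp36 (0.079) and Rgs2 (0.094). Nfkbia, the NF-κB inhibitor, fell by 1.60 ± 0.25 (adjusted p = 0.0015, and 0.088 without B7), and Zfp36, an mRNA decay factor, fell by 2.34 ± 0.56 (adjusted p = 0.021, 0.051 to 0.26 with a library left out). Tns1, a focal adhesion gene, had 43.9 and 75.6 against 0 and 0, at least 33.8-fold lower in PLZF+ cells against a floor of 3 reads a library, and lost its call without A6 (0.15) or B6 (0.16). Rgs2 fell by 0.75 ± 0.19 (adjusted p = 0.028, 0.062 to 0.41 with a library left out). Tsc22d3, the leucine zipper gene GILZ and a direct target, did not pass (585 and 824 against 378 and 518, log2 fold change -0.65 ± 0.24, adjusted p = 0.15), nor did Il7r (0.55 ± 0.17, adjusted p = 0.081).

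For the retinoic acid list, 3 of 8 tested genes fell and 1 rose (median -1.0). Itga4, the α4 integrin chain that pairs with β7 in gut homing, had 1142 and 718 normalized counts (A6, B6) against 111 and 100 (A7, B7) (log2 fold change -3.09 ± 0.27, adjusted p = 1.8e-05, at most 0.0050 with a library left out). Its partner Itgb7 went the other way, with 263 and 491 against 647 and 934 (1.11 ± 0.29, adjusted p = 0.035), and was no longer called once A6, A7 or B7 was left out (0.22, 0.17 and 0.50). Ccr9, a gut-homing receptor that plasmacytoid dendritic cells also express, had 261 and 106 against 9.91 and 2.23 (adjusted p = 0.00091, and 0.067 without A6), beside the fall of 5 of 8 tested plasmacytoid markers, a list that also holds Ccr9. Gpr171 fell by 0.91 ± 0.23 (adjusted p = 0.028) and was no longer called once A6, A7 or B7 was left out (0.16, 0.30 and 0.34). With the FPKM table, Itga4 (limma adjusted p = 0.0055) and Ccr9 (0.040) kept their calls, and Itgb7 (0.17) and Gpr171 (0.052) lost them. Tgm2 had 28.7 and 15.9 against 0 and 0, and did not pass (adjusted p = 0.18). The direct targets Cyp26a1 and Cyp26b1, which break retinoic acid down, had no read.

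Of 8 LXR targets 1 fell (median -0.12). Abca1, the cholesterol exporter, had 79.3 and 51.2 against 2.48 and 0 normalized counts (log2 fold change -5.12 ± 1.09, adjusted p = 0.011, 0.20 without A6 and 0.075 without B6). With the FPKM table Abca1 was not called (limma adjusted p = 0.17). Abcg1, its usual companion, had 65.8 and 107 against 74.9 and 78.1 (-0.13, adjusted p = 0.89). Neither Mylip, the LDL receptor ligase (-2.00 ± 0.59, adjusted p = 0.066), nor Smpdl3a (0.72, adjusted p = 0.17) passed. Of 15 PPAR targets 1 rose and 1 fell (median 0.17). Ucp2, a mitochondrial carrier, had 675 and 918 against 1381 and 1417 (0.83 ± 0.20, adjusted p = 0.020), and Hilpda, a lipid droplet gene, had 870 and 633 against 469 and 363 (-0.85 ± 0.23, adjusted p = 0.044). Neither was called once A6, A7 or B7 was left out (adjusted p 0.090 to 0.50). With the FPKM table, Ucp2 (limma adjusted p = 0.12) and Hilpda (0.089) were not called. The largest other differences by p were Plin2 (0.82, adjusted p = 0.10) and Ech1 (0.95, adjusted p = 0.11).

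The vitamin D and thyroid list had 3 tested genes and 0 calls (median 0.73, Klf9, Cdkn1a and Slc16a10). Cyp24a1, the most direct vitamin D target, had no read, nor had Cyp27b1, which makes the active hormone. Of 12 targets of ERRα, the product of Esrra, 0 passed (median -0.00). Ligand-making and ligand-clearing genes gave 0 calls among 10 tested, with 15 of 34 at 0 in all libraries, among them Aldh1a1. Hsd11b1, which regenerates active glucocorticoid, had 159 and 166 normalized counts against 119 and 112, and Cyp11a1, the first enzyme of steroid synthesis, 45.5 and 14.6 against 3.10 and 0 (log2 fold change -3.74 ± 1.42, adjusted p = 0.16). Abcc1, a transporter gene, did not pass either (1.11, adjusted p = 0.079).

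**Figure D4:**
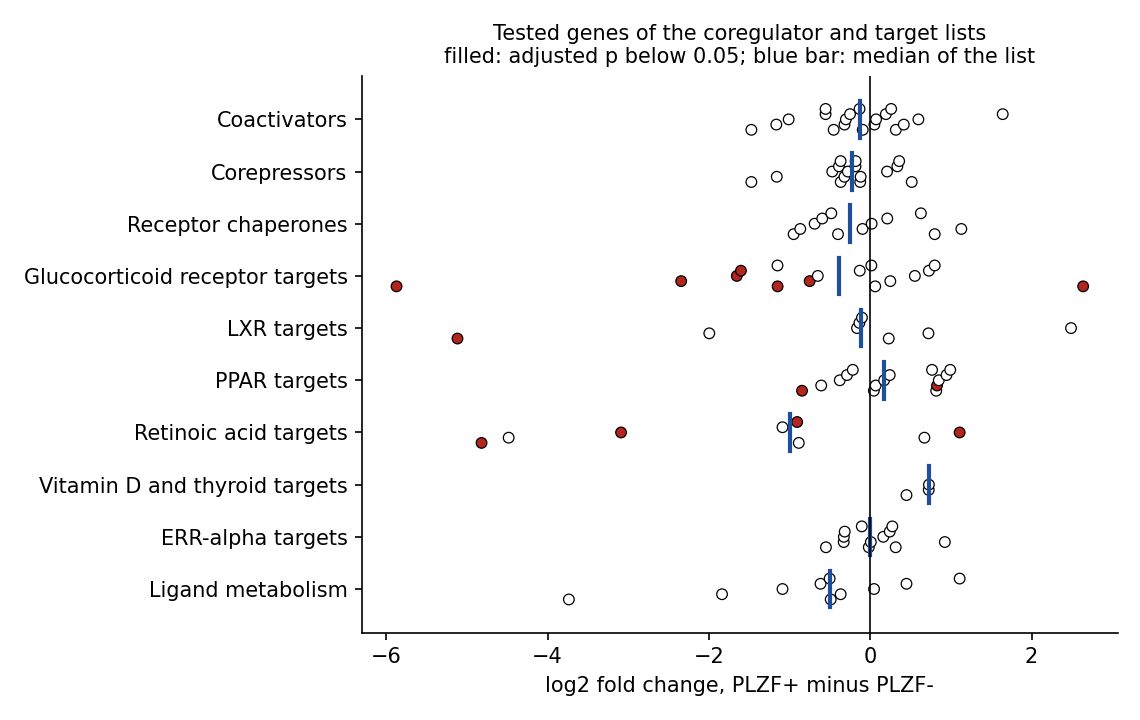
log2 fold change (PLZF+ minus PLZF-) of each tested gene of 10 lists of cofactors, receptor targets and ligand enzymes, 1 point a gene, filled where the limma adjusted p was below 0.05, with a blue bar at the list's median. No filled point lies in the coactivator, corepressor, chaperone, vitamin D and thyroid, ERRα or ligand lists, and the retinoic acid list has the lowest median, -1.0.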

How the data were processed

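The 4 libraries (2 per subset) were grouped by the subset in the column names. The submitters' processing notes name the build mm10 and the tools Cuffdiff, Cufflinks 1.2, HISAT 0.1.6 and SAMtools 1.2. For the annotation, the strand setting and the sort gates, nothing is given in the sources used here. The authors deposited Cuffnorm normalized counts (a signal: fragment estimates rescaled library by library, not raw counts), Cuffnorm FPKM, and a Cuffdiff table that holds their p-value and q-value per locus. Its fold changes were not used, because 1321 entries were unreadable.

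Named loci were summed to 44932 genes. Unnamed rows (1.82% to 3.22% of a library's total) and Rn45s (26.8% to 33.2%, listed at 0 in B7) were left out. Reads were estimated from the value of 1 read in each library, and 92.3% to 94.2% of values were whole reads to a tolerance of 0.05. Counting intervals and floors (3 reads) cover counting error only.

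Genes with a mean of at least 10 normalized counts (8978) were tested with limma 3.58.1 in R 4.3.3 (trend and robust). The test was two-sided, values were log2 transformed after a pseudocount of 1, and p was adjusted over all of these genes by Benjamini-Hochberg to a threshold of 0.05. Adjusted p-values come from it unless they are credited to the authors or given for FPKM or another alternative setting. Its fold changes understate those of low genes. FPKM were tested likewise with a pseudocount of 0.1. The fit was tested on simulated data that gave every gene the same dispersion (0.016), taken from well-read genes. It recovered 58% of genes changed 2-fold and 96% of those changed 4-fold, and called 10 of 8778 unchanged genes. A wider spread of low genes was not simulated, so the error rate for low members is not known from it. Alternatives were the pseudocount, filter, scaling, FPKM table, well letter, limma-voom on estimated reads, single-gene loci and each library left out.

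The 40 members and the lists were chosen with earlier results of these data known. Named genes are every tested member, untested members with at least 5 reads in a library, and, per list, up to 6 that passed with the smallest p and up to 2 that did not. Coordinates are GENCODE M21 on GRCm38 (mm10), 1-based. Some genes are not reported here.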

Additional observations from a re-analysis of the deposited data

How the results depend on the processing

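No paired analysis was possible because the table columns carry no replicate number and no label says that the well letters pair libraries. A fit with the letter as a term could be run: with it, 415 genes were called higher and 647 lower, against 226 and 424, and the lists gave 6 higher and 17 lower calls, against 2 and 11 (Zbtb16 left out). Among the 40 receptors the count called higher fell from 1 to 0 with a pseudocount of 0.25, no filter, the FPKM table, neither trend nor robust fit, and limma-voom. It was 0 at a minimum mean of 50, where Vdr was not tested, and was 0 to 1 with a library left out, while 0 were called lower throughout. Over all genes the FPKM table gave 103 higher and 207 lower, and the fit with neither trend nor robust 26 and 150. With a library left out, calls ranged from 20 (without B7) to 373 (without B6) higher and from 150 (without A6) to 348 (without B6) lower. The lists gave 1 higher with a pseudocount of 0.25 or no filter, 1 higher and 4 lower with FPKM, 0 and 4 with neither trend nor robust, 5 higher with limma-voom, and 0 to 2 higher and 4 to 9 lower with a library left out. The 1 list gene called higher with FPKM was the coactivator gene Med13 (limma adjusted p = 0.041). Itgb7 (0.17) and Ucp2 (0.12) were not called there. Signs reversed for Nr3c1 with FPKM (0.053). With a library left out, Rxrb ranged from -0.62 to 0.50 (0.09 without B7), Nr1h2 from -0.32 to 0.062 and Nr2c1 from -0.63 to 1.04. The cause of these changes was not tested. A count test on recovered whole reads was not run because the deposited values did not pass as whole reads. The limma-voom fit used estimated reads rounded to whole numbers. Depth limits the low members most: 3 reads stand for 5.06 normalized counts in A6.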

Other observations

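Of the 12 tested chaperone genes, 10 were higher in the A library than in the B library of both subsets, where 27.5% of all tested genes were, and Cdc37 and Bag1 were lower in it. These genes were looked at after their values were seen. Hsp90aa1 had 1056 and 412 normalized counts in A6 and A7 and 270 and 185 in B6 and B7, and Hsp90ab1 had 3124 and 2032 in A6 and A7 and 1503 and 1183 in B6 and B7. Ptges3 differed little, with 142 and 134 in A6 and A7 and 140.3 and 129 in B6 and B7. No label says what the letters stand for.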
